A study of Danio rerio with 75 samples.

Results

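Within the liver libraries of an ageing series of the zebrafish Danio rerio, 9 libraries carried high levels of genes of the intestine, and these 9 are described here against the other 14. Libraries are called here by tissue and the fish number of their title, and the 9 were liver_85 and liver_86 at 6 months, liver_120, liver_122 and liver_125 at 12 months, liver_133 at 24 months, liver_151 and liver_152 at 36 months and liver_109 at 42 months. The 9 were selected by their measured levels of intestine genes such as fabp2, with all ages together, so the difference in level between the 2 kinds of liver library is what selected them, and it is given as a description with no test. The series holds 75 libraries of RNA from brain, liver and skin, of which 73 could be placed in a group of tissue and age and 23 of those were liver. All grouped liver libraries were labelled with the strain AB JxTu and, per the study's methods, came from male fish that were dissected around noon or soon after. Fish of 6 and 24 months had no listed transgene, fish of 12 months carried Tg(flk:mCherry), fish of 36 months Tg(pu.1:GFP) and fish of 42 months Tg(wt1a:GFP). At 12, 36 and 42 months, line and age therefore cannot be told apart.

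As background, the epithelium of the intestine absorbs food through enterocytes, whose apical brush border is a carpet of microvilli held up by villin and studded with peptidases, glycosidases and transporters. In the zebrafish, which has no stomach, the anterior gut takes up most lipid, a middle stretch holds enterocytes rich in lysosomes that take up protein, and a posterior stretch follows. Hepatocytes make most proteins of the blood plasma and run much of intermediary metabolism, and the exocrine pancreas, which in adult zebrafish lies scattered in the mesentery along the gut and liver, makes digestive enzymes. Levels are CPM, read counts divided by library size and scaled between libraries by edgeR's TMM factors, and a difference is a log2 fold change of the edgeR fit. Its standard error (SE) is the size of the fold change divided by the square root of edgeR's F statistic. For liver the SE is a description and is not read as a test. In RNA of a whole piece of tissue, fewer cells of a type and less RNA per cell cannot be told apart.

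The label liver did not describe all 9 libraries equally well. In the library liver_86, the hepatocyte genes fabp10a, a bile acid and fatty acid binding protein of zebrafish liver, and tfa, transferrin, stood at 2.47 and 4.51 CPM, and in the library liver_133 at 47.4 and 202 CPM. The 14 other liver libraries held at least 5296 CPM of fabp10a and at least 25789 CPM of tfa. A number of results are therefore given also without these 2 libraries. Libraries liver_85, liver_120 and liver_151 held 913, 1169 and 1092 CPM of fabp10a, also below all 14 others, and the libraries liver_109, liver_122, liver_125 and liver_152 lay among the others at 5797 to 12079 CPM. Total counts per library ran from 31306947 to 53234972 in the 9 and from 33892335 to 58166358 in the 14.

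The gene named by the selection, fabp2, the fatty acid binding protein of enterocytes, stood in liver_85, liver_86, liver_120, liver_122, liver_125, liver_133, liver_151, liver_152 and liver_109 at 3952, 4235, 5703, 1464, 5961, 2151, 3325, 3048 and 2872 CPM. In the 14 others its lowest, median and highest levels were 0.226, 13.3 and 177 CPM. The 9 lay above all others, and the gap at the threshold ran from liver_122 at 1464 CPM just inside to liver_136 at 177 CPM just outside, with a log2 fold change of 6.72 (SE 0.81) over all libraries. Just inside, liver_133 came next after liver_122, and just outside, liver_110 followed liver_136 at 66.1 CPM. Summed over the lists of brush border and lipid absorption, the libraries next to the threshold were others, liver_133 at 18235 CPM just inside and liver_126 at 7229 CPM just outside. Villin, vil1l, the actin bundler of microvilli, was at 1536, 2061, 1771, 765, 1447, 1137, 1742, 945 and 1025 CPM in the same order of libraries. Its lowest, median and highest levels in the 14 others were 0, 0.616 and 23.8 CPM, with liver_110 and liver_135 leading at 23.8 and 20.1 CPM. There was no overlap, and the log2 fold change was 8.53 (SE 1.09), or 9.28 without liver_110 and 9.12 without liver_135.

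For tfa the same 9 libraries held 4991, 4.51, 3273, 13159, 21589, 202, 3646, 17215 and 20286 CPM, against a lowest, median and highest of 25789, 48091 and 110160.0 CPM. All 9 lay below all 14 others, and the log2 fold change of tfa was -2.55 (SE 0.74), or -2.20 without liver_86 and liver_133. For fabp10a the classes overlapped, with 913, 2.47, 1169, 6662, 12079, 47.4, 1092, 11989 and 5797 CPM in the 9 and 5296, 14298 and 23709 CPM as lowest, median and highest of the others. Its log2 fold change was -1.67 (SE 0.74), and -1.31 without liver_86 and liver_133. Compared per length with the authors' RPKM values, fabp2 exceeded fabp10a in 5 of the 9 libraries, liver_85, liver_86, liver_120, liver_133 and liver_151, and in 0 of the 14 others. In liver_125, the library with the most fabp2 by CPM, fabp2 stood at 4159.7 RPKM and fabp10a at 21465 RPKM.

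**Figure D1:**
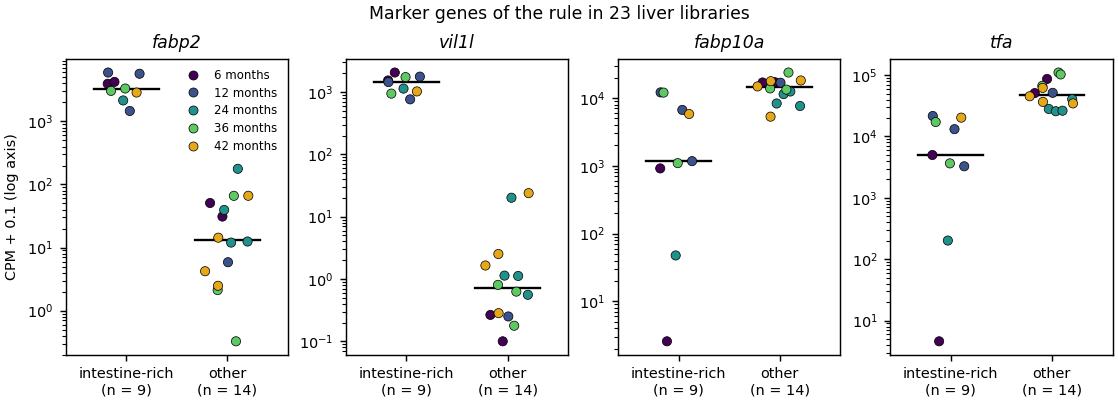
Levels of fabp2, vil1l, fabp10a and tfa in 23 liver libraries, 9 intestine-rich and 14 others, on log axes of CPM with 0.1 added; each point is a library coloured by age and the line is the median. For fabp2 and vil1l the 9 lie above all others, for tfa below all others, and for fabp10a the 2 classes overlap.

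Across all genes, 868 of 19023 tested were at least 2-fold higher in the 9 with every library above all 14 others (4.56% of genes tested), and 0.568% were at least 2-fold lower with every library below. Because this contrast selected the libraries, nothing is read from these counts. By fold alone, 2924 genes (15.4%) were at least 2-fold higher and 2429 (12.8%) at least 2-fold lower, and the median log2 fold change of all genes was -0.11. Without liver_86 and liver_133, 954 genes (4.95% of those then tested) were higher and 0.773% lower, and 851 of the 868 were among the former. The share of lower genes was 0.866% without liver_125, 0.901% without liver_152 and 0.928% without liver_135, one of the others. Scaling moved these numbers. Of genes at least 2-fold apart, 54.6% were higher with TMM factors, 76.9% with scaling by total count only and 97.2% with libraries scaled to the hepatocyte metabolism list, and the median log2 fold change of all genes went from -0.11 to 0.35 and 2.12. The scaling to this list used the mean log count of those members that had counts in every library. Fold changes with TMM factors are to be read against -0.11. Of the 868, 47 belonged to the 7 gene lists of the intestine used below, and of the lower genes without overlap, 9 belonged to a hepatocyte list.

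The 12 genes with the highest fold changes among the 868, under a rule that asked for an official symbol and a mean log2 CPM of at least 2, were named as enzymes and transporters of the gut surface for the most part. They included ALPP, an alkaline phosphatase, the meprin metalloproteases mep1a.2 and mep1a.1, the cathepsin ctsl.1, the fatty acid translocase cd36, enpp7, which splits sphingomyelin, the carboxypeptidase cpo, the acidic chitinase chia.3, the diamine oxidase abp1, apoea, an apolipoprotein E, and pdzk1, a scaffold of membrane transporters. Their log2 fold changes ran from 9.49 for pdzk1 to 11.36 for ALPP. Without liver_110, that of ALPP was 12.67, that of chia.3 12.63 and that of apoea 12.15. The chitinase chia.3 was at 22507, 30499, 24396, 5661, 6456, 564, 26505, 4338 and 13551 CPM in the order of libraries used for fabp2, and the 14 others reached 193 CPM, in liver_110. Library liver_133 was thus the lowest of the 9 for chia.3 and liver_110 the highest of the others.

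The fatty acid translocase cd36 stood at 1178, 1500.5, 1796, 599, 2345, 527, 2025, 1856 and 412 CPM, against at most 8.69 CPM in the others. The apolipoprotein apoea stood at 7488, 10843, 13008, 3091, 8715, 2229, 7979.8, 3669 and 3838 CPM, and the others had a median of 0.751 CPM with the highest value, 108.2 CPM, again in liver_110. Neither gene overlapped between the classes. For ctsl.1 the spread among the 9 was of another kind, since liver_122 had 3679 CPM and the other 8 had between 15.9 and 61.0 CPM. Its log2 fold change of 10.68 was 7.01 without liver_122 and 5.37 by DESeq2, below the range given above for the 12.

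The list of the brush border had 22 members tested, and all 22 were at least 2-fold higher in the 9, 18 of them with no overlap, with a median log2 fold change of 6.75 (6.71 without liver_86 and liver_133 and 7.52 without liver_110). Its members include anpepb, an aminopeptidase N, and si, the sucrase-isomaltase that splits dietary sugars. Sucrase-isomaltase ran from 1136 to 6081 CPM in the 9 and from 0.476 to 86.9 CPM in the others, and anpepb from 644 to 3832 CPM and 1.05 to 27.4 CPM. The members with overlap were plac8.1, mep1b, tmprss15 and tm4sf5, in which at least 1 of the 9 libraries fell into the range of the others. Summed over the list, the 9 held 8248 to 19830.1 CPM and the 14 others 150.4 to 707 CPM. The highest sums of the others belonged to liver_110 and liver_135, at 707 and 686 CPM, the same libraries that led the others in vil1l.

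Genes of lipid and vitamin absorption were higher to a lesser degree, with a median of 4.45 over 19 members tested (3.07 without liver_151 and 3.21 with age as a factor), 16 at least 2-fold higher (10 with no overlap) and 1 at least 2-fold lower. The acyl-CoA synthetase acsl5 ran from 321 to 894 CPM against 0.0371 to 9.08 CPM, and mogat2, which rebuilds diglycerides in enterocytes, from 56.0 to 229 CPM against 0 to 2.08 CPM. The retinol binding protein rbp2a overlapped between classes, at 702 to 4848 CPM and 234 to 3097 CPM, with a log2 fold change of 1.59 (SE 0.44). Its paralog rbp2b was the member that was lower, at -2.30, with 0 and 1.88 CPM in liver_86 and liver_133 and 129 to 1119.8 CPM in the others. The rbp2 paralogs thus lay on opposite sides, rbp2b with the hepatocyte genes.

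The list of nutrient transport had 18 members tested with a median of 2.64, of which 12 were at least 2-fold higher (8 with no overlap) and 2 at least 2-fold lower. The peptide transporter slc15a1b stood at 1301, 888, 1334, 284, 1023, 419, 2119.5, 1127 and 978 CPM in the 9, in the same order of libraries, and at no more than 16.6 CPM in the others. The sodium-glucose cotransporter slc5a1 ran from 347 to 2419 CPM against 2.03 to 43.7 CPM, and the dicarboxylate carrier slc13a2 from 387 to 4498 CPM against 0.198 to 31.2 CPM. The glucose carrier slc2a2, which both enterocytes and hepatocytes use, was at 41.6 to 335 CPM in the 9 and 109.8 to 701 CPM in the others, with a log2 fold change of -0.82. The amino acid carrier slc6a19b was uneven within the 9, at 1.58 CPM in liver_109, 15.3 CPM in liver_86 and 1101 CPM in liver_152.

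**Figure D2:**
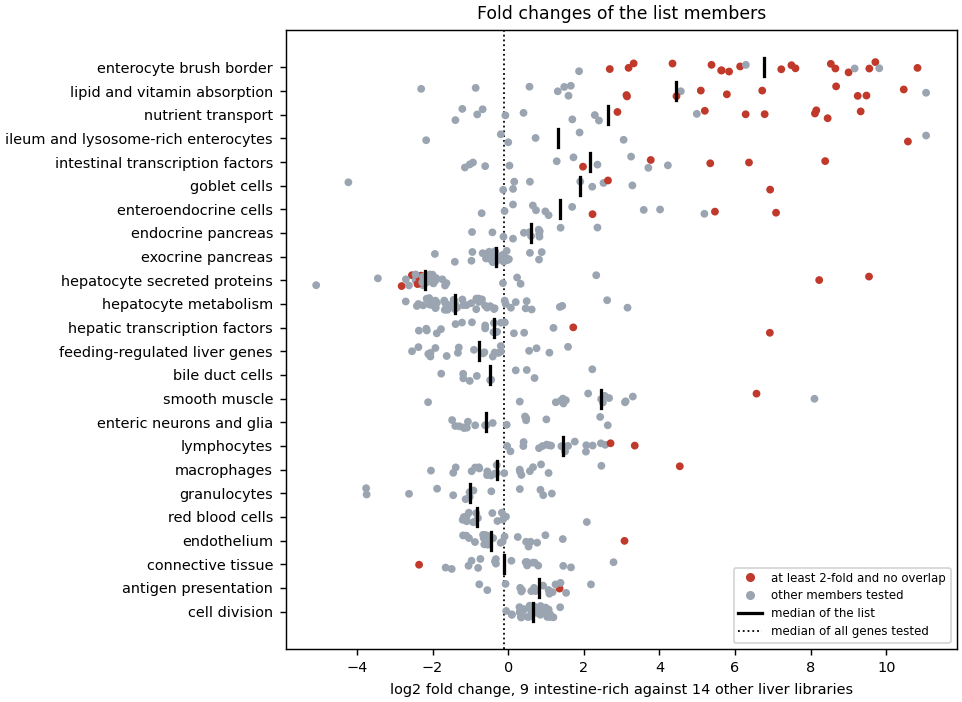
Log2 fold change of each tested member of 24 gene lists between the 9 intestine-rich and the 14 other liver libraries (horizontal axis), with the list's median as a bar and the median of all genes tested as a dotted line. Members at least 2-fold apart with no overlap are red; they are most frequent in the lists of brush border (18 of 22), lipid absorption (10 of 19) and nutrient transport (8 of 18).

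Of 16 transcription factors of the intestine tested, 11 were at least 2-fold higher (5 with no overlap) and 2 at least 2-fold lower, with a median log2 fold change of 2.17. The caudal factor cdx1b, which marks intestinal identity, was at 121.2, 157, 206, 68.1, 90.3, 81.8, 107.6, 66.5 and 85 CPM against at most 5.3 CPM. Hnf4g, a nuclear receptor of enterocytes, ran from 41.7 to 100.5 CPM against 8.69 to 29.2 CPM, with no overlap. By contrast gata6, which liver expresses as well, overlapped fully, at 33.4 to 79.6 CPM and 21.7 to 92.0 CPM.

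Of the secretory cells of the gut, 11 goblet cell genes were tested with a median of 1.91 (1.42 without liver_86 and liver_133), 6 at least 2-fold higher (2 with no overlap) and 1 at least 2-fold lower. The membrane mucin muc13b, which enterocytes also carry, was at 382 to 1184 CPM against 0.816 to 30.2 CPM, whereas the secreted mucin muc2.2 was near 0 in all 23 libraries, with at most 0.277 CPM. The intelectin itln3 had a log2 fold change of -4.23, with 10894 CPM in liver_147 of the others and a median of 190.3 CPM in the others as a whole. Enteroendocrine genes had a median of 1.38 over 14 tested, with 8 at least 2-fold higher and 3 with no overlap. The latter were the peptide precursors adcyap1a (7.08) and penka (5.47) and the serotonergic factor fev (2.23). The hormones gip and ghrl, ghrelin, overlapped between the classes, and within the 9 gip was highest in liver_122, at 123 CPM, and at 0 CPM in liver_125.

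Within the 9, the libraries did not hold the same stretch of the intestine's gene programme. The ileal bile acid binding protein fabp6 was at 1865 CPM in liver_122, 1796 CPM in liver_133 and 233 CPM in liver_152, and between 0.369 and 2.41 CPM in the other 6, while the 14 others reached 1.13 CPM. The ileal bile acid transporter slc10a2 followed the same 3 libraries, at 241, 302 and 38.3 CPM, and was at most 0.0914 CPM in the other 6. So did tmigd1, at 181, 135.3 and 25.6 CPM against at most 0.173 CPM. These genes, and those of gut regions and insulin described next, were singled out within their lists after their values were seen, and slc10a2 and tmigd1 did not pass the filter on low counts, so they have no fold change.

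Library liver_122 stood apart from liver_133 and liver_152 in the machinery with which lysosome-rich enterocytes take up protein. The receptor cubn, cubilin, was at 178 CPM in liver_122 and at most 0.154 CPM in the other 8. Its partner amn was at 99.6 CPM against 2.65 CPM in liver_133 and less elsewhere, and the adaptor dab2 at 369.9 CPM against at most 3.39 CPM in the other 8. The megalin paralog lrp2b stood at 623 CPM in liver_122 and at 8.75 CPM in liver_133, the next highest. The lysosomal hydrolases ctsz and hexb were also highest in liver_122, at 657 and 335 CPM. The list of ileum and lysosome-rich enterocytes as a whole had 8 members tested, with a median of 1.31, 4 at least 2-fold higher (1 with no overlap) and 1 at least 2-fold lower, the basolateral bile acid exporter subunit slc51a (-2.17). Its median turned to -0.14 without liver_122 and to -0.08 with age as a factor, and was -0.01 by DESeq2, 0.08 by voom and 5.59 with no filter on low counts, so it has no settled sign. Summed over the list, 5 of the 9 libraries lay below all 14 others and 2 above.

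Further genes ran along with this division. The phosphate cotransporter slc34a2a was lowest in liver_133, liver_122 and liver_152, at 24.7, 130.1 and 247 CPM, against 449 to 991 CPM in the other 6. The posterior factor cdx4 was highest in liver_133 and liver_122, at 20.3 and 12.7 CPM, and liver_152 and liver_125 came next, at 6.66 and 4.43 CPM. The gut hormone insl5a was at 16.5, 11.7 and 11.3 CPM in liver_133, liver_152 and liver_122 and at 6.46 CPM in liver_125, and at 3.58 CPM or less in the remaining 5. The chitinase chia.3, in contrast, was lowest in liver_133, liver_152 and liver_122. The fish with fabp6 were of 12, 24 and 36 months.

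**Figure D3:**
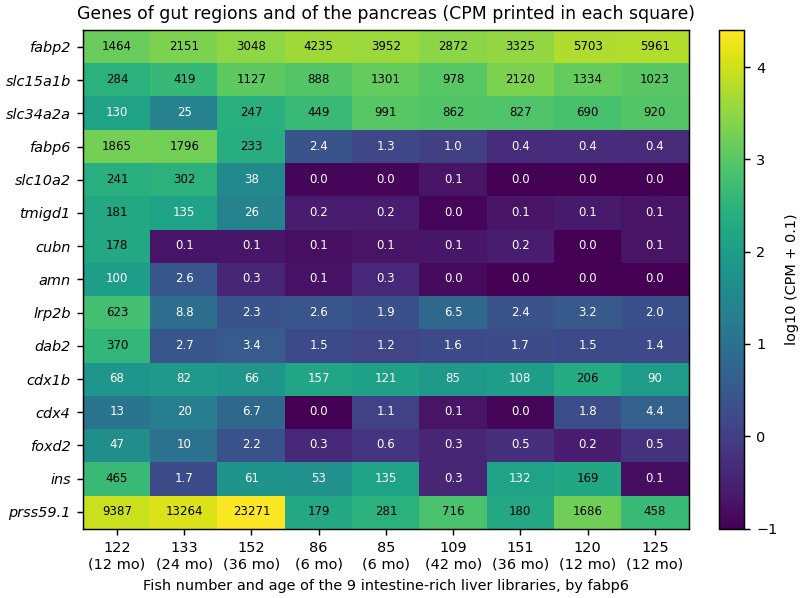
Levels in the 9 intestine-rich liver libraries (columns, ordered by fabp6) of genes of gut regions and pancreas (rows), coloured by log10 of CPM plus 0.1 with the CPM printed. Fabp6, slc10a2 and tmigd1 are high in liver_122, liver_133 and liver_152, cubn and amn in liver_122, and prss59.1 in liver_152, liver_133 and liver_122.

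Genes of the exocrine pancreas did not separate the classes. Of 31 tested, 0 were at least 2-fold higher and 2, amy2al1 among them, at least 2-fold lower, and no member was free of overlap. The median log2 fold change was -0.33, with no settled sign. It was -1.03 without liver_152 and 0.82 without liver_146, 0.26 with scaling by total count only, 1.91 with age as a factor and 1.68 by voom. The summed level of the list spanned a wide range within each class, from 1150.2 CPM in liver_86 to 128814 CPM in liver_152 among the 9, and from 226 CPM in liver_96 to 286111 CPM in liver_146 among the others. The trypsin-like protease prss59.1 stood at 281, 179, 1686, 9387, 458, 13264, 180.1, 23271 and 716 CPM in the order of libraries used for fabp2, and its lowest, median and highest levels in the others were 3.46, 395 and 44280.2 CPM. Libraries liver_122, liver_133 and liver_152, the 3 with fabp6, were also the highest of the 9 here. Reads of prss59.1, prss59.2 and prss1 may be shared, since these trypsins are close copies, so their separate values are uncertain.

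The endocrine pancreas, whose islets secrete insulin, glucagon and somatostatin, followed neither the exocrine pancreas nor the gut throughout. Insulin, ins, was at 134.8, 53.2, 169, 465, 0.0616, 1.70, 131.9, 61.2 and 0.274 CPM in the 9, with liver_122 the highest and liver_125, liver_109 and liver_133 under 2 CPM. In liver_133 the summed exocrine list thus stood at 78860.2 CPM beside 1.70 CPM of ins, and in liver_151 at 1271 CPM beside 131.9 CPM of ins. Among the others, ins reached 704 CPM in liver_107 and 132.98 CPM in liver_126 and lay at 12.9 CPM or below in 11 of the remaining 12, with liver_146 at 40.9 CPM. Of 13 endocrine genes tested, 2 were at least 2-fold higher, 0 at least 2-fold lower and none without overlap, with a median of 0.60. That median was 1.87 without liver_107, 0.11 without liver_122, 1.84 with age as a factor and 2.56 by voom. Of all genes tested, 15.4% were at least 2-fold higher. The 2 higher endocrine genes lie near that share and are not read as a trait of the list.

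Hepatocyte genes were lower in the 9, to an extent that differed between libraries. Of 44 genes for secreted proteins tested, 38 were at least 2-fold lower, 9 of them with no overlap, with a median of -2.21 (-1.86 without liver_86 and liver_133, and -1.24 without liver_85, liver_86, liver_120, liver_133 and liver_151). Set against the median of the 14 others in each gene, the median member stood in liver_86 at -10.17 on the log2 scale, in liver_133 at -7.29, in liver_151, liver_120 and liver_85 at -3.73, -3.36 and -3.24, and in liver_109, liver_152, liver_122 and liver_125 at -1.50, -1.33, -1.11 and -0.79. In the median member of this list, the 9 libraries thus ranged from nearly no message in liver_86 to a level near that of the others in liver_125. The hepatocyte metabolism list was ordered otherwise, with its median member at -4.37 in liver_133, -2.86 in liver_86 and -0.36 in liver_125. In liver_86, abcb11b, the bile salt export pump of hepatocytes, was at 0.0217 CPM, and in the others at 106.03 to 842 CPM. The same 9 libraries held 8248 to 19830.1 CPM of brush border genes, whose part in the lower hepatocyte levels was not tested.

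The 3 members of this list that were at least 2-fold higher were apoea and the mannose binding lectin mbl2, both without overlap, and apoa1a, an apolipoprotein A-I. Apoa1a was at 21871, 17541, 26679.5, 7693, 16504, 5150.5, 17573, 8375 and 12965 CPM in the 9 and 612 to 10274 CPM in the others, with a log2 fold change of 2.33. Apobb.1, an apolipoprotein B that enterocytes and hepatocytes both use to build lipoproteins, did not separate the classes, at 3106 to 20616 CPM and 6213 to 28793 CPM, and kept 18977 CPM in liver_86. Apolipoprotein A-II, apoa2, lay with the hepatocyte genes, at 19.6 CPM in liver_86 and 15695 CPM or more in the others. The apolipoproteins were therefore divided, with apoea and apoa1a high in the 9, apobb.1 overlapping, and apoa2 and apoc1 below all others in 8 of the 9 libraries each.

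The 12 lowest fold changes under the same rule ran from -2.41 for chia.6 to -2.97 for C4A. They included 4 complement genes, C4A, c3a.1, c5 and C2, besides tfa, nid1a, a basement membrane protein, nfasca, a cell adhesion protein of the neurofascin family, the chitinase chia.6, the forkhead gene foxn3, and greb1l and fndc3ba. Complement C4A, an early component of the cascade, was at 8.30 CPM in liver_86 and 764 CPM in liver_109, the highest of the 9, against 770.4 to 9659.8 CPM. The gap between the classes was therefore narrow, at 764 against 770.4 CPM. Complement c3a.1 was at 6.61 to 6715 CPM against 7110.5 to 62453 CPM, and greb1l at 1.54 to 24.1 CPM against 27.5 to 143 CPM. The fold changes of these 12 moved toward 0 without liver_86 and liver_133, to between -2.78 for fndc3ba and -2.14 for chia.6.

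Of 54 genes of hepatocyte metabolism tested, 32 were at least 2-fold lower and 4 at least 2-fold higher, 0 without overlap in either direction, with a median of -1.41 (-1.13 without liver_86 and liver_133). Hpda, which degrades tyrosine, ran from 1.67 to 5787 CPM against 2479 to 13870.0 CPM, and bhmt, which remethylates homocysteine, from 9.67 to 2957 CPM against 1239 to 7631 CPM. The 4 that were higher were abcb11a and the cytochromes cyp2k16, cyp2k6 and cyp2k18, whose close relatives may share reads.

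Of 21 transcription factors of the liver, many of which the gut shares, 3 were at least 2-fold higher (2 with no overlap) and 7 at least 2-fold lower. Their median was -0.39 (0.09 with scaling by total count only). Of all genes tested, 15.4% were at least 2-fold higher and 12.8% at least 2-fold lower. The counts of higher genes in the lists of this paragraph lie near or below that share and are not read as traits of the lists. The bile acid responsive repressor nr0b2a stood at 727, 712, 544, 176, 678, 19.7, 219, 171 and 234 CPM in the 9 and reached 10.7 CPM in the others, a log2 fold change of 6.92. Hnf4a, which acts in both organs, was at 54.6 to 263 CPM against 37.0 to 395 CPM, a log2 fold change of -0.30 with TMM factors and 0.22 with total count only. Prox1a, a factor of hepatocytes, was at 2.65 CPM in liver_86, 66.5 CPM in liver_125 and 46.6 CPM or more in the others. Of 22 genes that feeding regulates in liver, 10 were at least 2-fold lower and 2 at least 2-fold higher, with 0 free of overlap and a median of -0.79, among them the fatty acid synthase fasn (-2.55) and igf1 (-2.06). Bile duct genes had a median of -0.48, with 4 of 11 at least 2-fold lower and 1 higher.

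**Figure D4:**
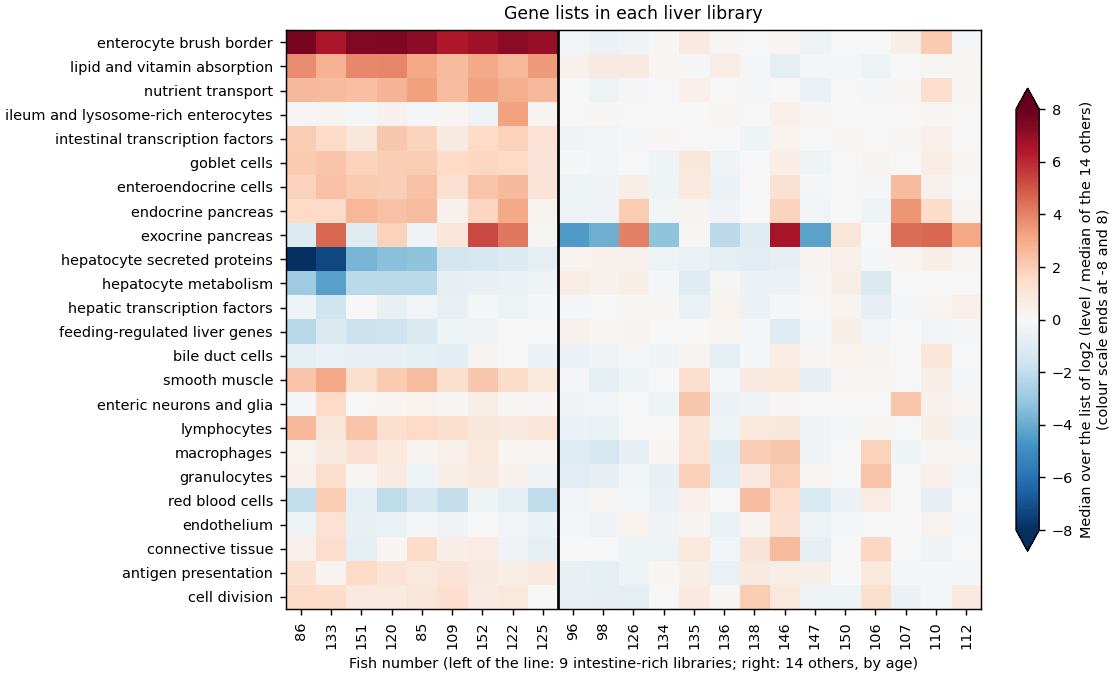
Median over the tested members of 24 gene lists (rows) of the log2 ratio of each liver library (columns) to the median of the 14 others, in colour from -8 to 8. The 9 intestine-rich libraries stand left of the line, ordered by hepatocyte secreted proteins from liver_86 (-10.17) to liver_125 (-0.79), and their brush border row runs from 6.41 to 7.56; the exocrine pancreas row varies on both sides of the line.

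Genes of smooth muscle, which forms the gut wall, were higher, with 15 of 17 tested at least 2-fold higher (1, desmb, with no overlap), 1 at least 2-fold lower and a median of 2.46 (1.98 without liver_86 and liver_133). The smooth muscle actin acta2 was at 1165, 337, 281, 154, 90.9, 443, 80.3, 538 and 91.5 CPM in the 9, highest in liver_85, and at 3.42 to 135.7 CPM in the others. The sum of the list ran from 364 to 2512 CPM and from 105 to 589.7 CPM, and 5 of the 9 lay above all others. Genes of enteric neurons and glia had a median of -0.60 (-0.93 without liver_86 and liver_133), 3 of 18 at least 2-fold higher and 7 at least 2-fold lower. Their median was 0.22 by DESeq2, 0.07 with age as a factor, 0.04 by voom and 0.01 without liver_135. Of all genes tested, 15.4% were at least 2-fold higher, 12.8% at least 2-fold lower and 4.56% higher without overlap. The 3 higher genes of enteric neurons and glia and the lone smooth muscle gene without overlap are near these shares. They are not read as traits of their lists.

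Among blood and immune cells, lymphocyte genes were higher, with 14 of 20 tested at least 2-fold higher, 2 without overlap, 0 at least 2-fold lower, and a median of 1.45, with sums of 79.3 to 344 CPM against 11.6 to 390.2 CPM. The part of gut tissue, whose brush border sums are given above, in these values was not tested. Runx3, a factor of T cells, was at 10.8 to 42.1 CPM against 1.16 to 9.19 CPM, and ccr7, a homing receptor of lymphocytes, had a log2 fold change of 3.35. Ccr9a, a receptor that guides T cells to the gut in mammals, was at 14.2 to 83.7 CPM against 0.793 to 55.1 CPM. Antigen presentation had a median of 0.82, with 8 of 18 at least 2-fold higher (1 with no overlap, the class I gene mhc1zba, at 617 to 1329 CPM against 242 to 542 CPM). Macrophage genes had a median of -0.30, which was 0.03 with scaling by total count only, 0.37 with age as a factor and 0.42 by voom, and their sum was higher in the intestine-rich libraries at 4 of 5 ages. The carrier slc7a7, which moves cationic amino acids and which absorptive epithelia also use, was the member without overlap, at 4.54. Of all genes tested, 4.56% were higher with no overlap. The lone members without overlap in antigen presentation and macrophages are therefore not read as a trait of these lists. Granulocyte genes had a median of -1.02, with 8 of 14 at least 2-fold lower, such as mmp9 (-3.76), and none without overlap. That median was 0.04 with age as a factor and 0.24 by voom.

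Library liver_133 differed from the other 8 in further tissues. Its hemoglobin gene hbaa1 stood at 5858 CPM against 64.8 to 732 CPM in the other 8 and 244 to 8977 CPM in the 14, the muscle actin acta1b at 1335 CPM against at most 7.93 CPM, and myoglobin, mb, at 3229 CPM against at most 24.6 CPM. The median of the skeletal muscle list was 1.94 over 18 genes, with 13 at least 2-fold higher and 0 without overlap. Without liver_133 alone the median was 1.55, and without liver_86 and liver_133 it was 1.14. Against the median of the 14 others, the median member stood at 1.01 on the log2 scale in liver_133. It stood higher in liver_86 (2.47), liver_120 (1.59), liver_85, liver_151 and liver_109, and lower in liver_125, liver_152 and liver_122. Without liver_86 and liver_133, the log2 fold change of mb turned from 3.03 to -1.83. The list of red blood cells had a median of -0.82, -2.38 without the same fish, -2.47 without liver_133 alone and -0.19 without liver_138, with its sum below all others in 5 of the 9 libraries. Endothelial genes had a median of -0.44, which was -0.81 without liver_86 and liver_133 and 0.13 with scaling by total count only. The fenestral diaphragm gene plvapa, at 39.1 to 79.2 CPM against 0.255 to 29.2 CPM, was the member with no overlap. With 4.56% of all genes tested higher without overlap, nothing is read from this gene about endothelium.

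Of 20 connective tissue genes, with a median of -0.12 (0.23 without liver_146 and 0.12 with age as a factor), the fibronectin fn1b, a form of which mammalian hepatocytes release into plasma, was lower without overlap, at 50.1 to 4093 CPM against 4577 to 16244 CPM (-2.36), while the collagen col1a1a reached 1089 CPM in liver_85 and overlapped otherwise. The kidney list had 9 of 18 members tested, with a median of 0.02 (-0.27 without liver_86 and liver_133). Of these, 3 were at least 2-fold higher and 2 at least 2-fold lower. The bicarbonate cotransporter slc4a4a (6.06) and the sulfate carrier slc26a1 (5.29) were its members without overlap, and they do not stand for the list. Of 30 testis genes found, 8 passed the filter on low counts, with a median of -0.43 (0.14 with total count only), and adipose genes had a median of -0.01 over 8. All 34 cell division genes were tested, with 6 at least 2-fold higher and a median of 0.66, and the 13 genes of the mitochondrial genome had a median of -0.51. Of all genes tested, 15.4% were at least 2-fold higher, and the count for cell division was near that share. With libraries scaled to the hepatocyte metabolism list, the medians of all lists named here were above 0 other than those of hepatocyte secreted proteins (-1.65) and hepatocyte metabolism (-0.10). This scaling places the hepatocyte metabolism list near 0 by construction. It also moved the median of all genes to 2.12, so that these medians are to be read against 2.12 and not against 0. The 18 genes of bile acid and xenobiotic handling had a median of 0.28, and abcb4 (3.22) alone was higher with no overlap. With 4.56% of all genes tested higher without overlap, nothing is read from abcb4 about this list. Cyp3a65, the main CYP3A of zebrafish gut, was at 481 to 3927 CPM against 131 to 879 CPM.

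Since the ages held the 2 kinds of library in unequal numbers, differences were also taken within each age. The summed brush border list was higher in the intestine-rich libraries at all 5 ages, by 4.82 to 6.75 on the log2 scale. The summed lists of lipid absorption and nutrient transport were higher at all 5 as well. In each of these lists every intestine-rich library lay above every other liver library. A higher sum at each age was therefore certain, and its sign is no check on the unequal ages. The summed list of hepatocyte secreted proteins was lower at all 5 ages. It was at -1.21 on the log2 scale at 42 months and -3.78 at 24 months, where liver_133 was the single intestine-rich library. In this list 8 of the intestine-rich libraries lay below all others, so its sign could hardly differ between ages. The exocrine pancreas sum was higher at 6, 24 and 36 months and lower at 12 and 42 months. With age as a factor in the fit, 864 genes were higher, 862 of them also without it, and 0.573% were lower. Overlap was judged on the same CPM with and without the age term. These counts could therefore hardly differ and do not show that the calls are independent of age.

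Properties that had not served to select the libraries were tested. By age, 2 of 4 liver libraries at 6 months, 3 of 4 at 12, 1 of 5 at 24, 2 of 5 at 36 and 1 of 5 at 42 months belonged to the 9, and the unevenness over ages did not pass the threshold of 0.05 (exact permutation test of the chi-square, p = 0.475). A listed transgene was carried by 6 of the 9 and 8 of the 14, with an odds ratio of 1.5 (Fisher's exact test, 2-sided, p = 1). The total count was 36468739 ± 6461818 in the 9 and 41489879 ± 5919123 in the 14 (mean ± SD), a difference of -5021139 that did not pass the threshold of 0.05 (exact permutation test, 2-sided, p = 0.0531).

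Whether prss59.1, a gene of the exocrine pancreas, went with fabp10a, a gene of hepatocytes, was examined within each class on the log2 scale. Fabp10a was itself a marker given with the selection, and these single genes do not stand for whole organs. Relations of fabp2 are not given, since its level selected the 2 classes. The p-values are adjusted over the 6 relations computed. Among the 9, Pearson's r was 0.27 (exact permutation p = 0.49, adjusted 0.74) and Spearman's rho 0.43 (exact permutation p = 0.25, adjusted 0.44), and r was 0.50 without liver_133 and liver_152, the farthest from the median of prss59.1. Among the 14 others, r was 0.20 (permutation p = 0.49, adjusted 0.74) and rho 0.30 (permutation p = 0.29, adjusted 0.44), and r was 0.24 without liver_146 and liver_147. Neither relation passed the threshold of 0.05.

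Skin had been dissected from fish with the same numbers, 7 with an intestine-rich liver library and 10 with another, and skin levels had no part in the selection. By edgeR's quasi-likelihood test with age as a factor, 0 of 21388 genes (0%) passed an adjusted p of 0.05. The lowest adjusted p of this test was 0.868, and 1121 genes had an unadjusted p under 0.05. At 12 months all skin libraries used were of the 7, and at 36 months all were of the 10. With age as a factor, the contrast therefore rests on the libraries of 6, 24 and 42 months, fewer than the 7 and 10. Means and ranges of CPM in skin are over all of the 7 and 10. DESeq2 and limma voom also called 0 genes, with 1399 and 1112 at an unadjusted p under 0.05. The skin level of fabp2 was 6.32 ± 6.54 CPM in the 7 and 17.9 ± 30.8 CPM in the 10 (mean ± SD), with a log2 fold change of -2.20 (SE 1.23, edgeR adjusted p = 0.868). The high values lay in the 10, with 80.6 CPM in skin_98 and 71.7 CPM in skin_106, and the other 15 skin libraries held at most 20.4 CPM. Vil1l was at 8.0 to 19.2 CPM in the 7 and 9.44 to 52.3 CPM in the 10, again highest in skin_98 and skin_106, with a log2 fold change of -1.05 (SE 0.39, edgeR adjusted p = 0.868).

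Hepatocyte genes in skin were led by skin_135, one of the 10, with 871 CPM of fabp10a and 2277 CPM of tfa, and the highest of the 7 was skin_125, with 116.1 and 167 CPM. The log2 fold changes were -1.55 (SE 1.32) for fabp10a and -2.13 (SE 1.5) for tfa, with edgeR adjusted p of 0.870 and 0.868. Summed exocrine pancreas genes were highest in skin_106, at 2647 CPM, against 34.9 to 173 CPM in the other 16 libraries. In brain, with 3 fish of the 9 and 6 of the 14, fabp2 was at 21.1 to 31.3 and 13.7 to 29.3 CPM, so that the ranges overlapped. The library brain_122 held 497 CPM of fabp10a, 1516 CPM of tfa and 2086 CPM of summed exocrine pancreas genes, and the other 8 brain libraries at most 83.9, 212 and 70.5 CPM.

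**Figure D5:**
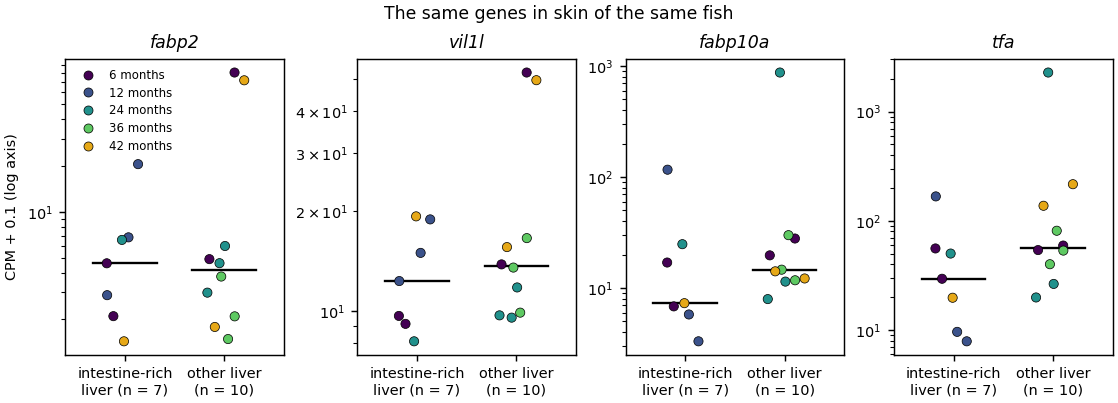
Levels of fabp2, vil1l, fabp10a and tfa in 17 skin libraries, 7 of fish with an intestine-rich liver library and 10 of fish with another, on log axes of CPM with 0.1 added; each point is a library coloured by age and the line is the median. The highest points of fabp2 and vil1l are skin_98 and skin_106, both among the 10, and the highest of fabp10a and tfa is skin_135.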

How the data were processed

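Total RNA of brain, liver and skin was sequenced from libraries of the TruSeq RNA kit, which does not mark strand, as single-end reads. Per the submitters' processing notes, bases were called with CASAVA 1.8.0, reads aligned with TopHat2 2.0.6 to the genome build Zv9 and assigned to genes with HTSeq. The authors deposited raw counts for each gene and library, and RPKM values that divide these counts by gene length and library size. Reads of close paralogs or overlapping genes could be divided between them. The 32677 rows of the count table include 351 with no symbol, which carry a gene ID and stayed in the tests.

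Fish numbers were taken from the titles. That 1 number in 2 tissues is the same fish was read from the numbers and not from a label, and p-values measure only the spread between these samples. Columns left without a sample numbered 0. The 9 libraries were given by their levels of intestine genes, and members, gene lists and tests were chosen with earlier results of these data known. Counts were fitted with edgeR 4.0.16 in R 4.3.3 (TMM factors, filterByExpr, glmQLFit). Of the liver contrast the report gives fold changes, their SE and overlap only, and skin was tested with glmQLFTest, age as a factor and Benjamini-Hochberg adjustment. Brain levels are CPM with no test. Differences of summed lists within an age are between class means of the log2 of the summed CPM, with nothing added. Of 761 genes asked over 30 lists, 673 were found, 66 of them through name tables. Named were the 4 markers of the selection, the 12 highest and 12 lowest fold changes without overlap whose mean log2 CPM reached 2, and the 3 most abundant members of each list. Other list members named were chosen after their values were seen. Alternatives covered RLE factors, total count only, hepatocyte scaling, no filter, DESeq2 1.42.0, limma 3.58.1 with voom, age as a factor, other thresholds and libraries left out. Scripts were tested on simulated data. Exact tests used SciPy 1.17.1, with 100000 draws for relations over 14 libraries, and planned relations with fabp2 are left out because fabp2 selected the classes. Depth was 31306947 to 58166358 counts for liver and 32925263 to 48935972 for skin, and 2 libraries whose labels disagreed on tissue entered no comparison. A few genes that these rules name are not reported here.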

Additional observations from a re-analysis of the deposited data

Results flagged for a closer look

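Within the 9 intestine-rich liver libraries, 34 summed gene lists and single genes were examined for a library whose distance from its nearest neighbour exceeded 0.493 of the range, and 8 were found. For independent groups of normally spread values, chance gives about 1 in 20, but these sums come from the same 9 libraries and are not independent, so that the 8 are read as a description. Library liver_122 held the highest sum of 3 lists. Its ileum and lysosome-rich enterocyte genes summed to 4739.8 CPM, against 2379 CPM in the next library, its enteroendocrine genes to 256 CPM against 132.5 CPM, and its endocrine pancreas genes to 939.5 CPM against 315 CPM. Library liver_133 held the highest sum of 4 lists. Its red blood cell genes summed to 12356 CPM against 1624 CPM, its skeletal muscle genes to 7063 CPM against 2760.0 CPM, its endothelial genes to 527 CPM against 299.9 CPM, and its genes of enteric neurons and glia to 141 CPM against 70.9 CPM. Library liver_151 held the highest macrophage sum, 2355 CPM against 1429 CPM.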

How the results depend on the processing

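Genes at least 2-fold higher without overlap were 4.56% of those tested and ranged from 4.36% to 5.23% when each library was left out in turn, and genes lower were 0.568% and ranged from 0.553% to 0.928%. With scaling by total count only 0.237% were lower, with scaling to the hepatocyte metabolism list 0.126%, and at 4-fold in place of 2-fold 0.321%. By fold alone, 15.4% were higher and 12.8% lower. DESeq2, voom, RLE factors and age as a factor gave 861 to 867 higher genes and 0.562% to 0.605% lower, and no filter, with 29377 genes tested, gave 928 higher and 0.33% lower. For voom and age as a factor, overlap was judged on the same TMM CPM as in the main fit, so that their counts could hardly differ. Without liver_133 and liver_126, the libraries next to the threshold in the summed lists of brush border and lipid absorption, 979 genes were higher and 0.803% lower, and, as alternatives chosen after seeing the data, 954 and 0.773% without liver_86 and liver_133 and 967 and 0.72% without liver_85, liver_86, liver_120, liver_133 and liver_151. None of the 4 markers and of the 12 highest and 12 lowest genes changed sign. These genes came with the selection or were picked as the most extreme without overlap in this contrast. Their signs could therefore hardly change, and this is no check on the contrast. With hepatocyte scaling, 16 of the lower genes were still lower without overlap. For the 4 markers, the 12 highest and 12 lowest genes and the list medians, 558 values under the alternatives moved by less than the spread and the others by more, 46 of the latter with hepatocyte scaling. For 87 further members of the lists, 938 moved by less and the others by more. A value that moved by less than the spread could still change sign. The exocrine pancreas median, at -0.33 in the main fit and 1.91 with age as a factor, is counted so. These numbers are therefore no count of stable results. Some medians were larger with age as a factor and by voom than without, among them those of the brush border (8.09 and 7.58), enteroendocrine cells (2.26 and 2.78) and cell division (1.54 and 1.14), and hepatocyte secreted proteins were at -2.91 and -3.73. In skin, each alternative called 0 genes, and the lowest adjusted p was 0.0559 by DESeq2 and 0.0546 by edgeR's quasi-likelihood test with no age term. The exact tests gave p = 0.0850 for age, 0.400 for transgene and 0.0899 for total count without liver_133 and liver_126. No fit without liver_122 and liver_136, the libraries next to the threshold in fabp2, was made other than leaving out each alone. No paired analysis was possible because each fish gave 1 liver library and the 2 classes came from different fish. Causes of these differences were not tested.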

Other observations

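The labels of 2 further libraries disagreed on tissue and these were placed in no group. The library titled liver_93+94, with skin as its source, held 10.6 CPM of fabp2, 1.04 CPM of vil1l, 8384 CPM of fabp10a, 32028 CPM of tfa, 119.7 CPM of summed brush border genes, 4896 CPM of summed exocrine pancreas genes and 152248 CPM of summed hepatocyte secreted proteins. The library titled skin_124, with liver as its tissue, held 21.9 CPM of fabp2, 0.967 CPM of vil1l, 5993 CPM of fabp10a, 13442 CPM of tfa, 129.8 CPM of brush border genes, 1397 CPM of exocrine pancreas genes and 52559.7 CPM of hepatocyte secreted proteins. These values are scaled by library size only.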
